A study of Mus musculus with 3 samples.

Results

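The comparison described here set the enriched regions of H3K27me3 beside those of Pol2-S5p around the starts of protein-coding genes in mouse embryonic stem cells. It asked how far each region spread from a start, where its edges lay and which of the 2 regions ended first. Members were the regions of both lists that lay at least partly within 20 kb of a start on either side, with positions in mm10 (GRCm38) and starts from GENCODE release M21. These were 24680 regions of the 68884 in the whole series, made up of 9074 of 17342 H3K27me3 regions (52.3%) and 15606 of 29222 Pol2-S5p regions (53.4%). Of 21853 protein-coding genes, 19216 starts were compared, because 2637 starts (12.1%) lay so close to another coding start that their 2-kb windows overlapped.

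The study mapped chromatin in F123 cells, a male hybrid line of mouse embryonic stem cells from a cross of an S129/Jae and a CAST parent, to follow how the parental copies of each chromosome differ. Cells were kept untreated on inactivated fibroblast feeders in medium with serum replacement and leukemia inhibitory factor (LIF), and were passaged without feeders before harvest. Chromatin immunoprecipitation followed by sequencing (ChIP-seq) was done with a rabbit antibody against H3K27me3 and with the mouse monoclonal CTD4H8 against RNA polymerase II phosphorylated at serine 5. Each list came from 1 library of this single cell line, so there were no replicates and no test between the lists was possible.

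H3K27me3 is trimethylated lysine 27 of histone H3, which Polycomb repressive complex PRC2 deposits and which can spread over whole genes and gene clusters. Serine 5 of the repeated tail of the largest polymerase subunit is phosphorylated as transcription begins, and Pol2-S5p therefore marks polymerase at and just past gene starts. In embryonic stem cells many genes for development carry Polycomb marks and this early form of polymerase at the same promoter. The lists were made from a population of cells and from both parental chromosomes together, so regions that cover the same start cannot be told apart as lying on the same or on different chromosomes, or in the same or different cells.

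The promoters that best show the arrangements described below are printed first, each as the 200 bases that precede the start, 5′ to 3′ on the strand of the gene, from the RefSeq copy of GRCm38. Capitals mark CG pairs, the sites of DNA methylation whose density sets the composition of a promoter. Wnt9b (chr11:103749822-103750021, minus strand, 20 pairs) and Scn4b (chr9:45138195-45138394, plus strand, 14 pairs) had a short Pol2-S5p region inside a long H3K27me3 region. Sox2 (chr3:34650205-34650404, plus strand, 28 pairs) had the reverse. Mixl1 (chr1:180697035-180697234, minus strand, 28 pairs) had H3K27me3 shifted upstream, and Slc6a4 (chr11:76998403-76998602, plus strand, 17 pairs) and Guca2a (chr4:119637504-119637703, plus strand, 0 pairs) had it shifted downstream. Ccna1 (chr3:55055502-55055701, minus strand, 24 pairs) had the same edges in both lists.
Wnt9b: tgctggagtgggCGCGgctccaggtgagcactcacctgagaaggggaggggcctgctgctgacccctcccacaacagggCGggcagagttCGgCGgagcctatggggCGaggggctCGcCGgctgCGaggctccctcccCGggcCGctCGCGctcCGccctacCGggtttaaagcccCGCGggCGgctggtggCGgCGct
Scn4b: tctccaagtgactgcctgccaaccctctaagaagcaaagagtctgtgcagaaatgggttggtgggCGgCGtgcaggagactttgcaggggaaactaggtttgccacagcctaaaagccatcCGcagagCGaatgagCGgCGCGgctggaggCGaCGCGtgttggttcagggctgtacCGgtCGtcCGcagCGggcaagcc
Sox2: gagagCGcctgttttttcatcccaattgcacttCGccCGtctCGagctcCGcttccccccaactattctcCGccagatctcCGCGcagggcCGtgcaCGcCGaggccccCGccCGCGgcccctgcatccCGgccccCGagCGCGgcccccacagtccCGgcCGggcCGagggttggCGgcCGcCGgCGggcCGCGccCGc
Mixl1: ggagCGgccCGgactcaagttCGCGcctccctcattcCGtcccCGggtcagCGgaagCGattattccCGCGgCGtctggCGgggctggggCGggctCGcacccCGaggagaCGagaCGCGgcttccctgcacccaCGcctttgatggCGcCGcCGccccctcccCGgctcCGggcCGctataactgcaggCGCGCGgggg
Slc6a4: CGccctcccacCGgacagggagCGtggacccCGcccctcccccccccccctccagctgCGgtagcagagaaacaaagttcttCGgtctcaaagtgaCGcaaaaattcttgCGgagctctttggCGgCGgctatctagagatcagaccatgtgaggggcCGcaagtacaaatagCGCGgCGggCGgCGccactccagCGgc
Guca2a: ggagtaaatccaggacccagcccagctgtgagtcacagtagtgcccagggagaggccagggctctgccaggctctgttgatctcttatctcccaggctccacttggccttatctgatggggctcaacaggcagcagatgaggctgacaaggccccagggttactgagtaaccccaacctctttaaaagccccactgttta
Ccna1: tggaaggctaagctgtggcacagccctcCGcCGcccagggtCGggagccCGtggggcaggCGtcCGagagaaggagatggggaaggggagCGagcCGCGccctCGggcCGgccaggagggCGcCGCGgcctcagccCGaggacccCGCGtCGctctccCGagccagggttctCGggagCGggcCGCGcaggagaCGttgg
CG pairs were dense in all of these except Guca2a, the gene of the gut hormone guanylin, which had none.

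Most starts with H3K27me3 also lay in a Pol2-S5p region, while the reverse held less often. A region of both lists covered the start of 5800 genes, which is 30.2% of those compared (95% interval 29.5 to 30.8). H3K27me3 alone covered 1608 starts (8.37%), Pol2-S5p alone 6080 (31.6%), and 5728 starts (29.8%) lay in neither. Pol2-S5p covered 78.3% of the starts under H3K27me3 (77.3 to 79.2), whereas H3K27me3 covered 48.8% of the starts under Pol2-S5p (47.9 to 49.7). Over all starts compared, the share covered was 38.6% for H3K27me3 and 61.8% for Pol2-S5p. All intervals here are exact (Clopper-Pearson for shares, order statistics for medians) and cover counting error over starts only. Starts also share regions. Among the 5800 starts with both, 1915 (33.0%) shared their H3K27me3 region with another such start and 1428 (24.6%) their Pol2-S5p region, and the largest numbers in 1 region were 23 and 12.

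Markers of pluripotent cells and of fibroblasts, the feeder cell type, were read in the same lists. Over all starts compared, Pol2-S5p covered 61.8% and H3K27me3 38.6%. Pol2-S5p covered all 10 pluripotency markers. H3K27me3 covered 3 of them, Sox2, Esrrb and Klf4, a count near its share over all starts. Of 10 fibroblast markers Pol2-S5p covered 3 and H3K27me3 covered 6, and neither covered Col3a1, Postn, Dcn or Lum. The list of 20 fibroblast genes given below had Pol2-S5p at 9 and H3K27me3 at 13. The part of feeder cells in the lists was not tested.

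Going outward from the start, H3K27me3 was the broader of the 2 upstream, and Pol2-S5p was the more skewed to the gene body. At the 5800 starts with both, a 200-bp bin centred 900 bp upstream was in H3K27me3 at 83.2% of starts and in Pol2-S5p at 52.4%. The bin 900 bp downstream was covered at 90.9% and 74.1%. At 2100 bp the cover was 68.2% against 41.0% upstream and 67.4% against 54.8% downstream. H3K27me3 thus had nearly the same cover at this distance on either side, and Pol2-S5p had more on the downstream side.

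Far from the start the order of the lists depended on the side. H3K27me3 covered more starts than Pol2-S5p in all 100 upstream bins. Downstream, beyond the first 1 kb, Pol2-S5p first covered more starts at 5300 bp and did so in every bin from there to 20 kb. At 4900 bp downstream the shares were 48.4% and 48.1%, and at 19900 bp downstream they were 32.9% and 41.4%. At 19900 bp upstream they met again, at 35.2% and 35.0%. With the 3704 starts that had no other coding start within 20 kb, called isolated here, the crossing lay at 6900 bp and the shares at 19900 bp downstream were 25.8% and 31.7%.

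**Figure D1:**
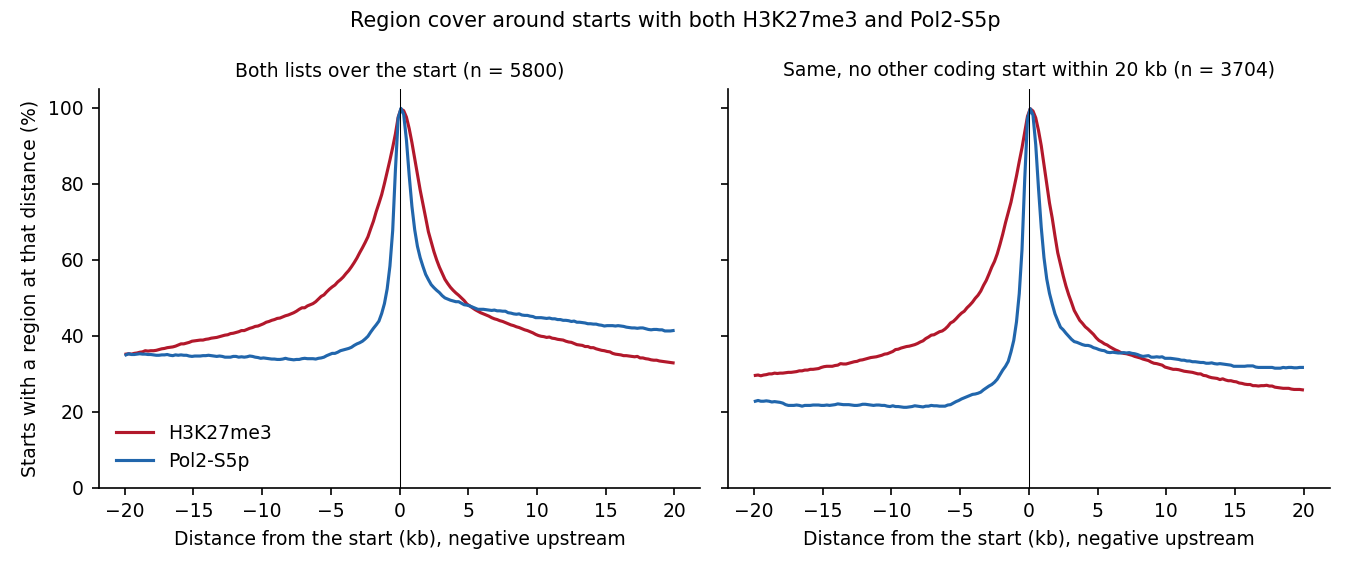
Percent of starts with both lists whose 200-bp bin is covered, against distance from the start in kb (upstream negative), for all 5800 starts and for the 3704 isolated ones, with a line per list. H3K27me3 lies above Pol2-S5p over the whole upstream side, and the lines cross at 5300 bp downstream for all starts and at 6900 bp for isolated ones.

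The region over the start was measured next, as its reach from the start to its own edge on each side. The H3K27me3 region reached a median of 5318.5 bp upstream (4907 to 5728) and the Pol2-S5p region 1008 bp (947 to 1082). Downstream the medians were 4281 bp (3897 to 4639) and 3048 bp (2722 to 3450). The upstream difference was thus the larger. Within the 40 kb around a start H3K27me3 covered a median of 19600 bp and Pol2-S5p 16000.5 bp, with every region in reach counted, and with whole windows covered that order turned (27024 bp and 30985 bp).

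Pol2-S5p extended further downstream than upstream, and H3K27me3 did not have such a lean. With each reach limited to 20 kb, the median of downstream minus upstream reach was 397 bp for Pol2-S5p (363 to 443) and 0 bp for H3K27me3. The downstream reach was the longer at 62.2% of starts for Pol2-S5p and at 46.1% for H3K27me3. The remainder includes equal reaches, as the region passed 20 kb on both sides at 11.2% of starts for Pol2-S5p and 13.1% for H3K27me3. At starts that lay in a region of a single list, the Pol2-S5p region reached 1486.5 bp upstream and 10285.5 bp downstream. The H3K27me3 region reached 6799 bp and 9855.5 bp there. Without the other list over the start, both regions had a longer downstream median than at starts with both.

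Reach varied widely. The Pol2-S5p region ended within 2 kb upstream at 59.0% of the 5800 starts and the H3K27me3 region at 31.2%, while downstream the shares were 44.9% and 30.9%. At the other extreme, the H3K27me3 region passed 20 kb at 28.0% of starts upstream and 27.3% downstream, and the Pol2-S5p region at 19.7% and 29.6%. Past 20 kb downstream, Pol2-S5p was therefore the more frequent of the 2, although its median reach was the shorter.

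**Figure D2:**
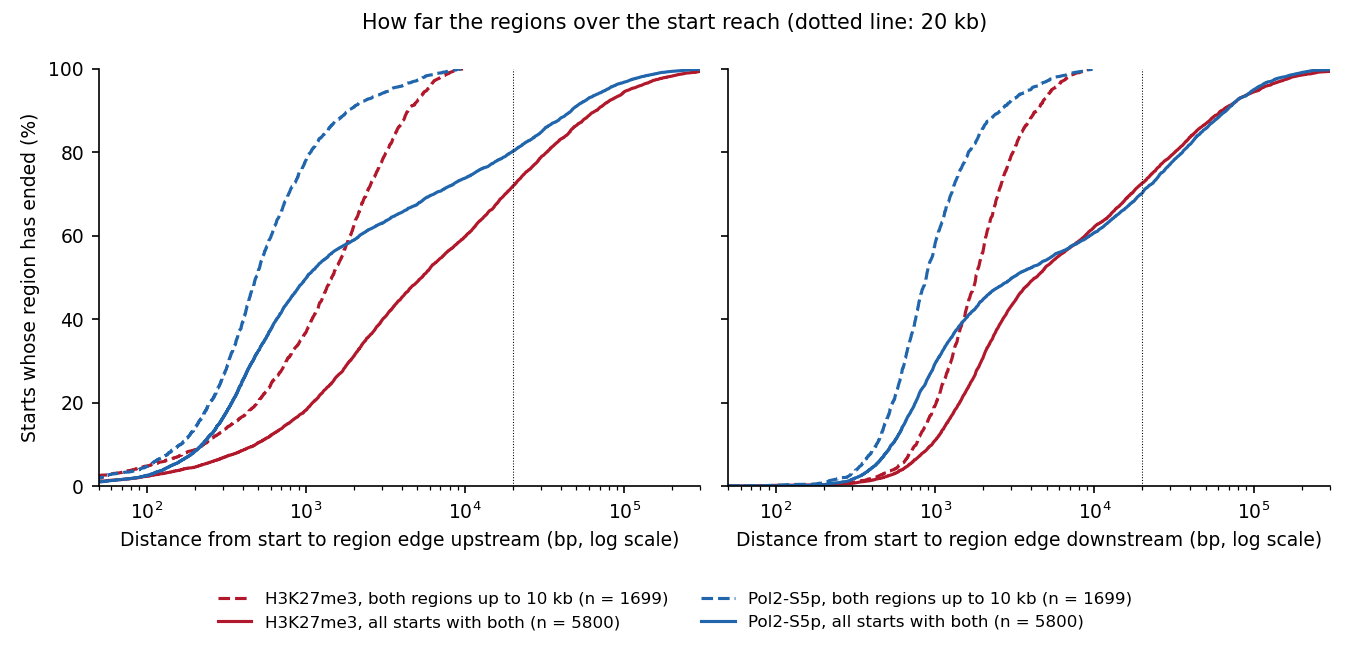
Cumulative percent of starts whose region has ended by a given distance (bp, log scale, dotted line at 20 kb) upstream and downstream, for all 5800 starts with both lists and for the 1699 where both regions were 10 kb or less. The Pol2-S5p line lies above H3K27me3 near the start on both sides, and for all starts the downstream lines cross before 20 kb, where 29.6% of Pol2-S5p regions and 27.3% of H3K27me3 regions had not yet ended.

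Which region ended first was then read on each side. Upstream, Pol2-S5p ended first at 3656 starts (63.0%, 61.8 to 64.3) and H3K27me3 at 1352 (23.3%, 22.2 to 24.4). Both ended at the same base at 320 starts (5.52%), and both passed 20 kb at 472 (8.14%). Downstream, Pol2-S5p ended first at 3066 starts (52.9%, 51.6 to 54.2), H3K27me3 at 1693 (29.2%, 28.0 to 30.4), both at the same base at 338 (5.83%), and both passed 20 kb at 703 (12.1%). Pol2-S5p was the first to end on both sides more often than H3K27me3, with a wider margin upstream. The downstream order was lost when both lists had to cover the whole 2-kb window around the start, where H3K27me3 ended first at 36.1% and Pol2-S5p at 35.8%. The set itself depended on the regions kept, as the share of starts with both was 12.0% when each list was limited to its higher-scoring regions (above its median score) and 8.84% with regions of 10 kb or less.

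The order was the same across chromosomes. On each of the 20 chromosomes with at least 20 such starts Pol2-S5p ended first more often than H3K27me3 on either side. Its share ranged from 54.2% on chromosome 8 to 72.4% on chromosome 2 upstream, and from 44.0% on chromosome 16 to 63.4% on chromosome 11 downstream. The share of starts with both lists ranged more widely, from 19.0% on chromosome X to 42.6% on chromosome 12.

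Edges of the 2 lists were seldom close together. Leaving out starts where both passed 20 kb, they lay within 200 bp of each other at 13.0% of 5328 starts upstream and 14.1% of 5097 downstream, and within 1 kb at 25.5% and 27.6%. Regions are placed on a grid of 200 bp by the peak finder, so 200 bp is the finest difference the lists can hold. Where Pol2-S5p ended first, the H3K27me3 edge was a median of 5400 bp further out upstream and 2800 bp downstream, with reaches counted up to 20 kb. Where H3K27me3 ended first, the Pol2-S5p edge was 8812.5 bp further out upstream and 12546 bp downstream. Starts at which H3K27me3 was the first to end were thus fewer, with larger gaps.

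Taken by both sides, 5 arrangements were possible. Reaches were limited to 20 kb for this, and a tie on a side counted as inside. Where both regions passed 20 kb, that side was a tie, whichever region reached further. The Pol2-S5p region lay inside the H3K27me3 region at 3070 starts (52.9%), and the H3K27me3 region inside the Pol2-S5p region at 1016 (17.5%). The first count held 324 starts with both regions past 20 kb downstream and 125 with both past 20 kb upstream. The second held 185 and 152. H3K27me3 was shifted upstream at 921 starts (15.9%) and downstream at 549 (9.47%). At 244 starts (4.21%) neither side told the lists apart, and at 40 of them (0.690%) both edges were at the same base.

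Width was tied to the order. Both regions were 10 kb or less at 1699 starts (29.3%), and there the median reach was 1448 bp upstream and 1798 bp downstream for H3K27me3 and 486 bp and 877 bp for Pol2-S5p. Pol2-S5p ended first at 69.3% of these starts upstream and 74.3% downstream, H3K27me3 at 16.7% and 11.8%, and Pol2-S5p lay inside at 71.3%. Edges were within 200 bp of each other at 30.3% upstream and 29.7% downstream, and within 1 kb at 56.4% and 58.5%. Where widths were short, the small Pol2-S5p region within a larger H3K27me3 region was the common form.

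Both regions were over 10 kb at 2203 starts (38.0%), and the downstream order there was the reverse. H3K27me3 ended first downstream at 39.4% (37.4 to 41.5) and Pol2-S5p at 27.3% (25.4 to 29.2), with 31.9% past 20 kb in both. Upstream, Pol2-S5p ended first at 49.8% and H3K27me3 at 27.6%. The median reach was 20932 bp upstream and 20516 bp downstream for H3K27me3, against 12598 bp and 27312 bp for Pol2-S5p. The midpoint of the Pol2-S5p region lay a median of 6523.5 bp downstream of the start (quartiles -6975.5 and 19537.5 bp, negative upstream). That of the H3K27me3 region lay 316.5 bp downstream (quartiles -13987 and 12998 bp). As a set, the long Pol2-S5p regions thus leaned to the gene side and the long H3K27me3 regions to neither side. Single regions of both lists were often centred far from the start, on either side.

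At the remaining starts the wider list was set by the grouping itself. With H3K27me3 over 10 kb and Pol2-S5p not (1258 starts), Pol2-S5p ended first at 95.2% upstream and 89.0% downstream. With Pol2-S5p over 10 kb and H3K27me3 not (640 starts), H3K27me3 ended first at 67.0% upstream and 85.3% downstream. The upstream share was the lower in the latter group, where Pol2-S5p ended first upstream at 28.9% in spite of its greater width.

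**Figure D3:**
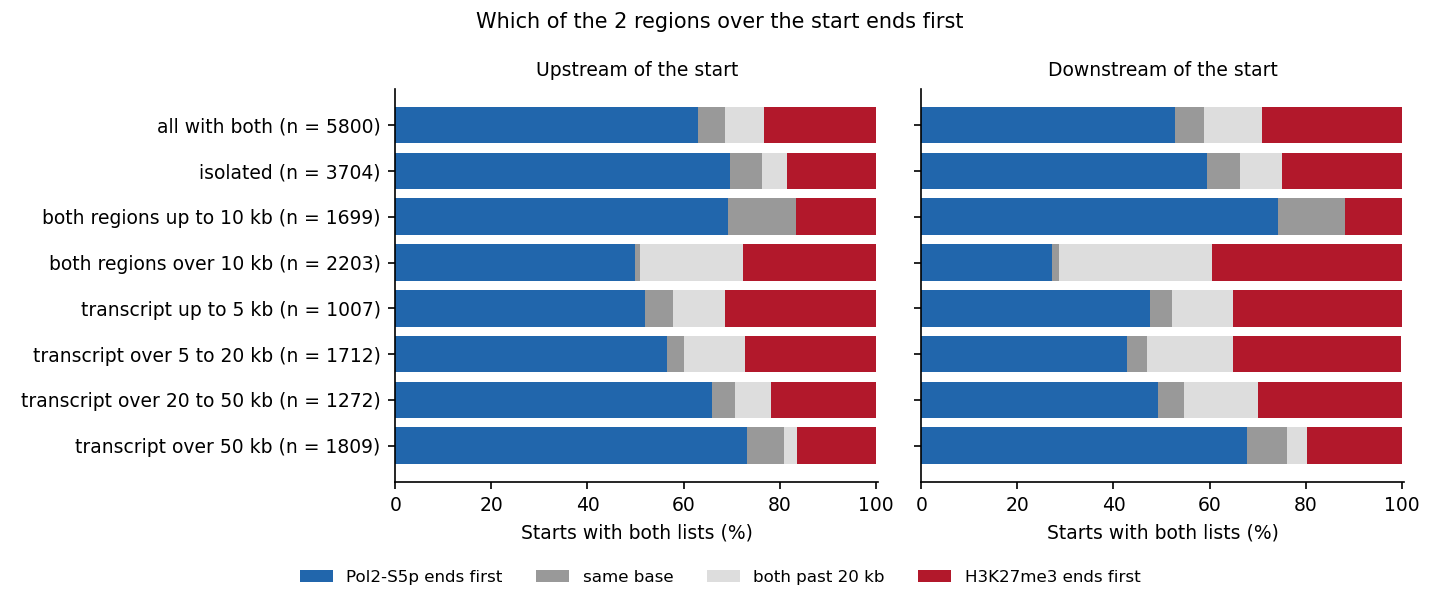
Percent of starts at which each region ended first, both ended at the same base or both passed 20 kb, upstream and downstream, as stacked bars from 0 to 100 for all starts with both lists and for groups by isolation, width and transcript length. Pol2-S5p takes the largest share in all starts on both sides (63.0% and 52.9%), and H3K27me3 does so downstream where both regions were over 10 kb (39.4%).

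Neighbouring genes and gene length moved with the order. At the 2096 starts with another coding start within 20 kb, Pol2-S5p ended first at 51.3% upstream and 41.3% downstream, and H3K27me3 at 31.8% and 36.7%. For transcripts over 50 kb (1809 starts), Pol2-S5p ended first at 73.2% upstream and 67.8% downstream. For transcripts of 5 kb or less (1007 starts) the shares were 51.9% and 47.5%. In the lengths between, they were 56.6% and 42.9% for over 5 to 20 kb and 66.0% and 49.3% for over 20 to 50 kb. The upstream share was higher in each longer class, and the downstream share was not. Starts of long transcripts also had the short regions, with a median transcript of 62235 bp where both regions were 10 kb or less and of 11701 bp where both were over 10 kb, so width and gene length cannot be told apart here.

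The downstream edge was set against the transcript. For the 5485 transcripts with an intron it lay in the first intron at 44.6% for H3K27me3 and 44.5% for Pol2-S5p, and past the end of the transcript at 32.9% and 38.2%. Where both regions were 10 kb or less (1592 transcripts), it lay in the first intron at 78.3% and 82.0%, and in the first exon at 1.38% and 3.77%. The first exon had a median length of 294 bp there. Short regions of both lists thus ended mostly past the first exon and before the next one.

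Short genes were often covered from end to end. Among 2430 transcripts over 2 and up to 20 kb with both lists over the start, H3K27me3 passed the end of the transcript at 57.2% and Pol2-S5p at 62.4%. Only Pol2-S5p did so at 22.1%, and only H3K27me3 at 16.9%. At isolated starts of that length the shares past the end were 47.4% and 48.3%, a difference within their counting intervals. Where the start was in a single list, 65.3% of H3K27me3 regions (816 transcripts) and 67.5% of Pol2-S5p regions (2709) passed the end.

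At some starts with short regions, a transcript of another gene, of any type, began on the opposite strand within 1 kb upstream. This held at 149 of the 1699 (8.77%). The upstream reach of Pol2-S5p there was a median of 653 bp (558 to 773), against 472.5 bp (448 to 499) at the other 1550 starts, and its downstream reach was 762 bp against 886 bp. H3K27me3 reached 1692 bp (1351 to 2013) upstream against 1429.5 bp (1329 to 1537), with intervals that overlap. Pol2-S5p ended first upstream at 70.5% and 69.2% of the starts in these groups, so the order hardly differed, while the Pol2-S5p region reached further toward the opposite start.

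Sequence around the edges differed between the lists. In the 400 bases on each side of an edge, at the starts where both regions were 10 kb or less, the ratio of observed to expected CG pairs was 0.619 inside and 0.309 outside the upstream Pol2-S5p edge. At the upstream H3K27me3 edge it was 0.420 inside and 0.264 outside. Downstream, the ratio was 0.637 inside and 0.362 outside for Pol2-S5p and 0.406 inside and 0.267 outside for H3K27me3. G and C made up 57.8% inside and 43.8% outside the upstream Pol2-S5p edge, and 49.9% and 42.2% at that of H3K27me3. The composition thus changed more across the Pol2-S5p edge than across the H3K27me3 edge, inside which CG pairs were already fewer. Repeats took up 11.3% of the bases inside and 19.0% outside the upstream Pol2-S5p edge, and 19.2% and 25.2% at the H3K27me3 edge.

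A CpG-rich stretch, defined as a run of 200-bp bins with at least 50% G and C and a ratio of at least 0.6, lay over the start at 78.5% of starts with both lists and 80.5% of those with Pol2-S5p alone. The share was 22.5% with H3K27me3 alone and 2.71% with neither. At the 1470 starts with short regions and such a stretch, the Pol2-S5p edge lay a median of 253 bp outside the stretch upstream and 283.5 bp downstream, and the H3K27me3 edge 1276 bp and 1230 bp. Across the 1699 starts with short regions, the rank correlation of region width with stretch length was 0.138 for H3K27me3 and 0.123 for Pol2-S5p, and that of the reaches of the lists with each other was 0.241 upstream and 0.349 downstream. These are descriptions over starts that share a genome, a peak finder and in part a region. Among short regions width followed stretch length only weakly. Over all 5800 starts with both, the correlation of width with stretch length was weakly negative, at -0.094 for H3K27me3 and -0.124 for Pol2-S5p.

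Ccna1, which encodes the germ cell cyclin A1, gives a case in which the edges did not differ. Both regions ran from 2098 bp upstream to 1501 bp downstream of its start. The same edges were also found at Alg6, which encodes a glucosyltransferase of protein glycosylation (3465 bp upstream and 534 bp downstream), and at Gnao1, a G protein subunit of neurons (1038 bp and 2961 bp).

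At isolated genes with all 4 edges within 20 kb, the starts with the largest difference in reach show the extremes of each arrangement. At Scn4b, a beta subunit of sodium channels, H3K27me3 reached 19795 bp upstream and 15604 bp downstream and Pol2-S5p 395 bp and 1004 bp. At Tbc1d1, which encodes a GTPase-activating protein for Rab proteins, H3K27me3 reached 15420 bp and 14579 bp and Pol2-S5p 620 bp and 779 bp. In each, Polycomb cover exceeded the polymerase region by more than 10 kb on either side. The reverse was seen at Usp36, a nucleolar deubiquitinase gene, with 8155 bp and 1044 bp for H3K27me3 and 14355 bp and 17844 bp for Pol2-S5p. At Susd1 H3K27me3 reached 2766 bp and 633 bp and Pol2-S5p 13566 bp and 19233 bp.

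Shifted pairs overlapped by different lengths around the start. At Slc25a4, which encodes the ADP/ATP carrier of mitochondria, H3K27me3 reached 19315 bp upstream and 3684 bp downstream and Pol2-S5p 115 bp and 14484 bp. At Cep41, a centrosomal protein gene, H3K27me3 reached 12650 bp and 1949 bp and Pol2-S5p 250 bp and 18349 bp. Pol2-S5p covered the gene side and began 250 bp or less before these starts, and the H3K27me3 region over the start lay mostly before it. The opposite shift was found at Wdr66, with 1102 bp and 13897 bp for H3K27me3 and 17102 bp and 497 bp for Pol2-S5p. Guca2a, whose printed promoter held no CG pair, had 2304 bp and 3295 bp for H3K27me3 and 19304 bp and 2095 bp for Pol2-S5p. Adora2a, an adenosine receptor gene, had a much longer overlap, with 1077 bp and 17722 bp for H3K27me3 and 15877 bp and 9522 bp for Pol2-S5p.

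**Figure D4:**
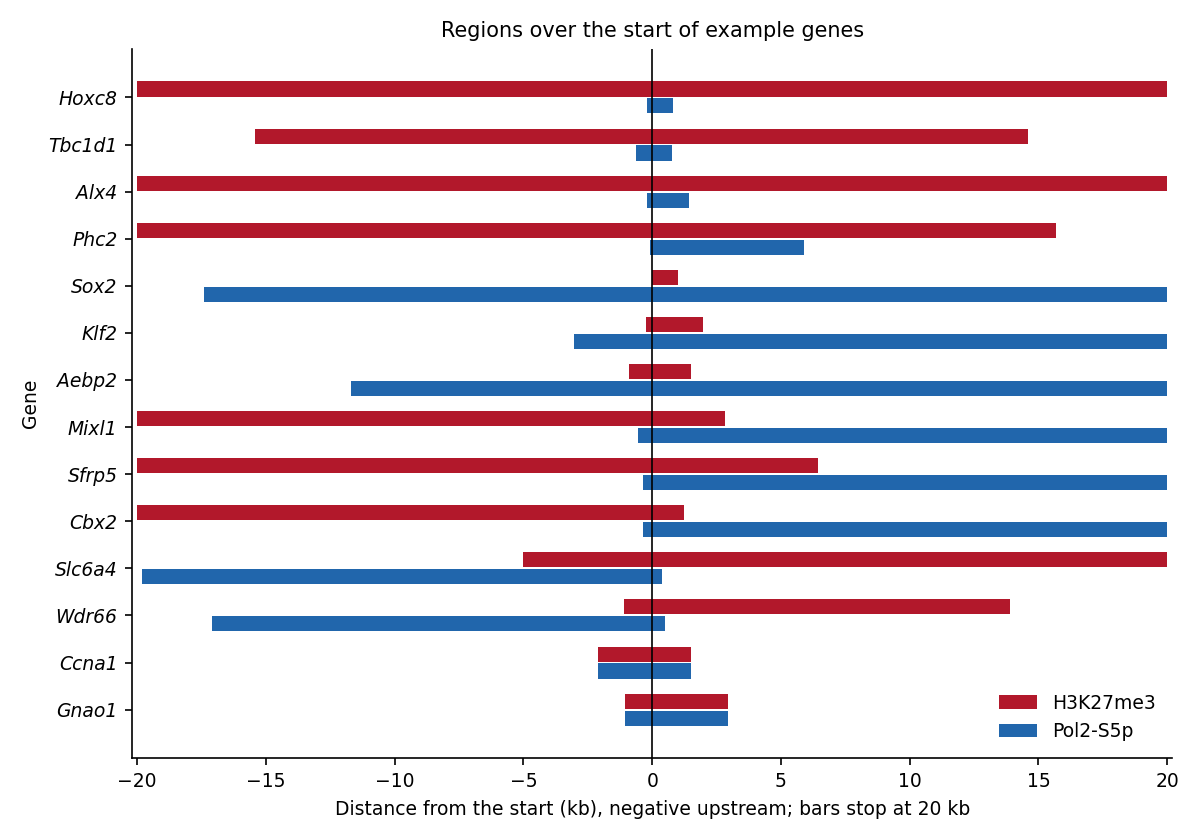
The H3K27me3 (red) and Pol2-S5p (blue) regions over the start of 14 named genes, by distance from the start in kb in the direction of transcription, with bars drawn up to 20 kb on each side. Pol2-S5p is the short bar at Hoxc8, Tbc1d1, Alx4 and Phc2, and H3K27me3 the short bar at Sox2, Klf2 and Aebp2, while at Mixl1, Sfrp5, Cbx2, Slc6a4 and Wdr66 the bars overlap only within a few kb of the start.

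Both lists covered the start of most genes of development. Of 156 developmental transcription factors, 153 had H3K27me3, 133 Pol2-S5p and 133 both over the start, beside 38.6%, 61.8% and 30.2% of all starts compared. Pol2-S5p lay inside H3K27me3 at 108 of the 133, beside 52.9% of all starts with both. It ended first at 117 upstream and 102 downstream, beside 63.0% and 52.9%. Median reach was 12279 bp upstream and 13839 bp downstream for H3K27me3 and 3119 bp and 3575 bp for Pol2-S5p. All 4 medians were longer than those over all starts with both.

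The Hox genes, which set the identity of body segments, lay in long H3K27me3 regions. Of 38 Hox starts, all 38 had H3K27me3 and 29 had both, with Pol2-S5p inside at 23, beside 38.6%, 30.2% and 52.9% over all starts. Median reach was 40124 bp upstream and 69967 bp downstream for H3K27me3 and 1568 bp and 1676 bp for Pol2-S5p. At Hoxc8 H3K27me3 reached 74607 bp upstream and 56392 bp downstream, and Pol2-S5p 207 bp and 792 bp. At Hoxd3 the reaches were 60127 bp and 71672 bp against 127 bp and 472 bp. At Hoxa9 the H3K27me3 region over the start ended first upstream, at 3829 bp against 27429 bp for Pol2-S5p, but the next H3K27me3 region began 4630 bp from the start and the mark covered 39201 bp of the 40 kb. Downstream both regions passed 20 kb, with 64770 bp for H3K27me3 and 24170 bp for Pol2-S5p. Hox starts of a cluster share H3K27me3 regions and are not independent of each other.

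Other developmental factors covered every arrangement. Alx4, a homeobox gene of limb and skull, had 230384 bp and 40815 bp for H3K27me3 and 184 bp and 1415 bp for Pol2-S5p. Gsc, a homeobox gene of the gastrula organizer, had 40869 bp and 68330 bp against 69 bp and 2130 bp. The Pol2-S5p regions were 1600 bp wide at Alx4 and 2200 bp at Gsc, inside H3K27me3 regions of 271200 bp and 109200 bp. Mixl1, a homeobox gene of mesendoderm, had H3K27me3 upstream (29565 bp and 2834 bp) and Pol2-S5p downstream (565 bp and 60434 bp). Lhx3, a homeobox gene of pituitary and motor neurons, had the mirror image, with 1824 bp and 68775 bp for H3K27me3 and 34024 bp and 4575 bp for Pol2-S5p. At Foxd3, a forkhead gene of pluripotent cells and neural crest, H3K27me3 (5899 bp and 7300 bp) lay inside Pol2-S5p (17899 bp and 7900 bp).

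Both lists also covered the start of most signalling ligand and receptor genes. Of 119 starts, 107 had H3K27me3, 109 Pol2-S5p and 99 both, beside 38.6%, 61.8% and 30.2% of all starts compared. Pol2-S5p lay inside at 68 of the 99 and ended first at 76 upstream and 58 downstream, beside 52.9%, 63.0% and 52.9% of all starts with both, and the last of these counts was near its share over all. The ligand genes Wnt9b and Fgf4 were opposite cases. At Wnt9b H3K27me3 reached 67778 bp upstream and 47221 bp downstream and Pol2-S5p 378 bp and 621 bp. At Fgf4, a growth factor gene active in embryonic stem cells, H3K27me3 reached 1586 bp and 1213 bp and Pol2-S5p 23786 bp and 14413 bp. The neighbouring ligand gene Fgf3 lay in the same Pol2-S5p region, which reached 995 bp upstream and 37204 bp downstream of its start, under an H3K27me3 region of 17995 bp and 5204 bp. At Fzd7, a Wnt receptor gene, H3K27me3 (224 bp and 2175 bp) again lay inside a long Pol2-S5p region (59624 bp and 9975 bp). At Sfrp5, a secreted Wnt inhibitor gene, H3K27me3 lay upstream (139547 bp and 6452 bp) and Pol2-S5p downstream (347 bp and 20252 bp).

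Pluripotency genes nearly all had Pol2-S5p over the start. Pol2-S5p covered 35 of 37 starts and H3K27me3 10, all 10 with both, beside 61.8%, 38.6% and 30.2% of all starts compared. The interval of the share with both, 13.8% to 44.1%, holds that over all starts. H3K27me3 ended first downstream at 8 of these 10 and Pol2-S5p at 2, beside 29.2% and 52.9% of all starts with both, and H3K27me3 ended first upstream at 4, beside 23.3%. At Sox2 the H3K27me3 region over the start was 1000 bp wide, from 5 bp upstream to 994 bp downstream, inside a Pol2-S5p region of 17405 bp upstream and 34594 bp downstream. At Klf2 it reached 233 bp and 1966 bp inside a Pol2-S5p region of 3033 bp and 186366 bp. Sox2 and Klf2 were named for a large difference, with H3K27me3 short and Pol2-S5p long over the start. Over the 10 starts with both, the median H3K27me3 reach was 10623 bp upstream and 2627.5 bp downstream. For Pol2-S5p it was 6265 bp and 26591.5 bp. At Sox2 further H3K27me3 regions began 6206 bp upstream and 10395 bp downstream, and the mark covered 16200 bp of the 40 kb. At Lin28a, which encodes an RNA-binding protein that blocks let-7, H3K27me3 lay upstream (112158 bp and 1441 bp) of a Pol2-S5p region of 2158 bp and 53241 bp. Tbx3 was among the 2 starts with Pol2-S5p inside, with both regions long, at 45669 bp and 178730 bp for H3K27me3 and 112069 bp and 16730 bp for Pol2-S5p, where the upstream edges both passed 20 kb.

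**Figure D5:**
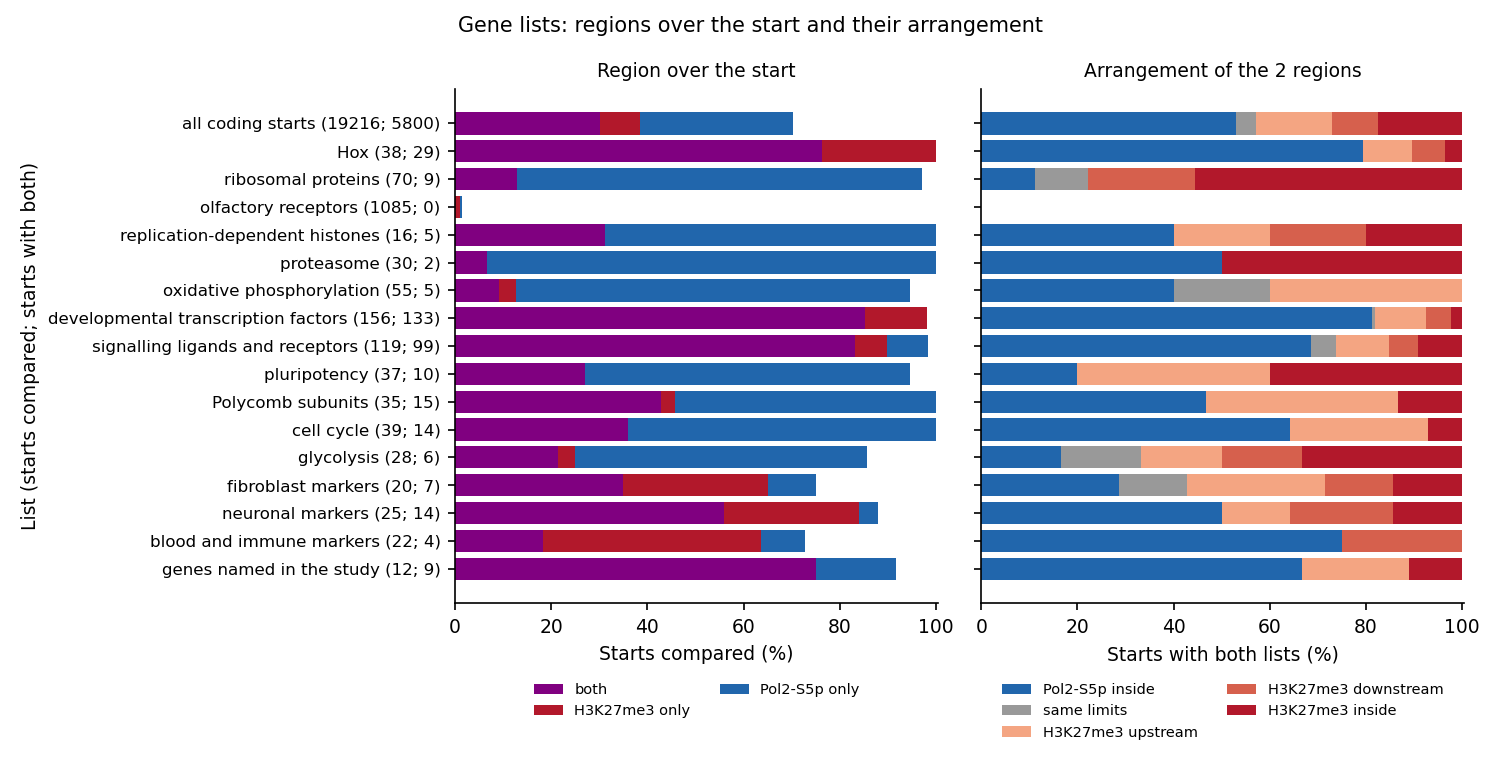
For each gene list, stacked bars give the percent of its compared starts with both lists, H3K27me3 only and Pol2-S5p only, and beside them the arrangement of the regions in percent of the starts with both. Developmental transcription factors (133 of 156) and signalling genes (99 of 119) have both lists at most starts, and pluripotency genes at 10 of 37.

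Genes of the Polycomb complexes themselves had H3K27me3 about as often as all starts compared (38.6%). Of 35 starts, 16 had H3K27me3, 34 Pol2-S5p and 15 both, beside 61.8% with Pol2-S5p and 30.2% with both over all starts. Pol2-S5p lay inside at 7 of the 15, near the 52.9% over all, and H3K27me3 was shifted upstream at 6, beside 15.9%. Pol2-S5p ended first upstream at 13 of 15 (interval 59.5% to 98.3%), beside 63.0%. H3K27me3 ended first downstream at 8 (26.6% to 78.7%), beside 29.2%. Both intervals hold the share over all starts with both. At Phc2, which encodes a polyhomeotic subunit of PRC1, H3K27me3 reached 25102 bp upstream and 15697 bp downstream and Pol2-S5p 102 bp and 5897 bp. At Cbx2, which encodes a chromodomain subunit of PRC1, H3K27me3 reached 74162 bp and 1237 bp and Pol2-S5p 362 bp and 25437 bp, so the H3K27me3 region over the start ended just inside the gene, with the next one beginning 10838 bp downstream. Pcgf1, a subunit of a variant PRC1, had the same form (51746 bp and 1053 bp against 1346 bp and 12053 bp), with the next H3K27me3 region 4054 bp downstream. At Aebp2, a cofactor of PRC2, H3K27me3 (899 bp and 1500 bp) lay inside Pol2-S5p (11699 bp and 28100 bp).

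Genes of differentiated cells were mixed. Over all starts 38.6% had H3K27me3, 61.8% Pol2-S5p and 30.2% both. Of 25 neuronal markers, 21 had H3K27me3, 15 Pol2-S5p and 14 both. At Gad2, a GABA-synthesising enzyme gene, Pol2-S5p (405 bp and 1994 bp) lay inside H3K27me3 (17005 bp and 9194 bp). At Slc6a4, the serotonin transporter gene, H3K27me3 reached 5003 bp and 33796 bp and Pol2-S5p 19803 bp and 396 bp. At Ncam1, a neural adhesion gene, the regions nearly coincided, with 74 bp and 2325 bp for H3K27me3 and 274 bp and 2725 bp for Pol2-S5p. Of 20 fibroblast genes 13 had H3K27me3, 9 Pol2-S5p and 7 both, the last near the share over all starts, and of 22 blood and immune genes 14, 6 and 4. Of 1085 olfactory receptor starts 11 had H3K27me3, 5 Pol2-S5p and none both.

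Genes that dividing cells use at large had Pol2-S5p at nearly every start, beside 61.8% of all starts compared. Pol2-S5p covered 68 of 70 ribosomal protein starts, 30 of 30 proteasome starts, 50 of 55 oxidative phosphorylation starts and 39 of 39 cell cycle starts. H3K27me3 covered 9, 2, 7 and 14 of these, and the last of these counts was near the share over all starts (38.6%). Of the 9 ribosomal protein starts with both, H3K27me3 lay inside at 5, with reaches limited to 20 kb, beside 17.5% of all starts with both. H3K27me3 ended first downstream at only 2 of the 9, and both regions passed 20 kb there at 4. Over all starts with both these shares were 29.2% and 12.1%. Of 67 replication-dependent histone genes only 16 starts were compared, because the 2-kb windows of the rest overlapped those of other coding genes. All 16 had Pol2-S5p and 5 had H3K27me3, the latter near the share over all starts (38.6%). Among the cell cycle genes, Pol2-S5p lay inside at 9 of 14 with both (64.3%, 35.1 to 87.2), an interval that holds the 52.9% over all. An example was Cdkn1c, an imprinted gene for an inhibitor of cyclin-dependent kinases, with 47949 bp and 88650 bp for H3K27me3 and 549 bp and 2050 bp for Pol2-S5p. Mest, another imprinted gene, had H3K27me3 upstream (27850 bp and 749 bp) and Pol2-S5p at 5450 bp and 14949 bp.

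Starts with Pol2-S5p and no H3K27me3 in their 2-kb window numbered 5807. Of these, 1844 (31.8%, 30.6 to 33.0) had an H3K27me3 region within 20 kb. This share ranged from 16.2% with regions of 10 kb or less to 37.5% with whole windows covered, and was 22.1% with isolated genes only. Over all starts compared, 56.6% had H3K27me3 within 20 kb, regions over the start included. At the 5807 starts, the H3K27me3 region lay on the upstream side only at 18.3%, on the downstream side only at 9.68% and on both sides at 3.82%. The nearest region began a median of 9267.5 bp away upstream (1282 starts) and 11555.5 bp downstream (784 starts). The upstream side thus held H3K27me3 more often and nearer.

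Abutting regions were rare in this set. Upstream, the nearest H3K27me3 region began inside the Pol2-S5p region at 35.6%, within 1 kb past its edge at 1.48% and further out at 62.9%. Downstream, the shares were 65.8%, 1.40% and 32.8%. Where the regions were apart, the space between them was a median of 8000 bp upstream and 7000 bp downstream. In this set H3K27me3 and Pol2-S5p thus mostly overlapped or lay more than 1 kb apart. Regions that met within 1 kb of the start were left out by the choice of set. How often the lists meet edge to edge at large was therefore not tested.

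The reverse set held 1408 starts with H3K27me3 over the start and no Pol2-S5p in the window, of which 773 (54.9%) had a Pol2-S5p region within 20 kb. The nearest began inside the H3K27me3 region at 63.8% upstream (519 starts) and 72.9% downstream (516 starts). Where neither list touched the window (5451 starts), H3K27me3 lay within 20 kb at 21.1% and Pol2-S5p at 28.9%. These are lower than the 31.8% and the 54.9% at starts already covered by the other list. With isolated genes only, the 31.8% was 22.1% (20.7 to 23.5), and the other 3 shares were not recomputed for such genes. Whether the differences go beyond gene density was therefore not tested. Over all starts compared, regions over the start included, H3K27me3 lay within 20 kb at 56.6% and Pol2-S5p at 76.2%.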

How the data were processed

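Region lists of H3K27me3 and Pol2-S5p, 1 library each, were compared. Reads had been mapped by the authors to an N-masked mm10 genome with Bowtie2 2.3.4.3, and BCP, a peak finder based on a Bayesian change-point model, had called the enriched regions of each library. The deposited lists gave positions and widths, an other kind of value in bp, and a deposited score whose unit is not given in the sources used here and which served only to rank regions within a list. The lists hold no read counts. The paper refers to its supplement for sequencing depth, which was not used here. The third list of the series, Pol2-S7p, was only counted.

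The start of a gene was that of its principal coding transcript in GENCODE M21, ranked by APPRIS tag and then by length, on 21 chromosomes. A list was at a start when a region covered that base, and edges were read on that region. Starts whose 2-kb window overlapped that of another coding gene were left out. Ends past 20 kb on both lists were a class of their own in the order of ends, and a tie in the arrangements. Positions count from 1.

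Genes were named by a rule: per arrangement the 5 isolated starts with the largest summed difference in reach and all edges within 20 kb, the 5 widest with the same edges, the 5 starts with Pol2-S5p and the narrowest gap between flanking H3K27me3 regions, and members of 16 gene lists for each arrangement. Some of them are not reported here. The members, lists and rule were chosen with earlier results of these data known. With 1 library per list no test was run. Code was tested on simulated regions. Python 3.11.15, NumPy 2.4.6, SciPy 1.17.1, pysam 0.24.0 and Matplotlib 3.10.9 were used. The 12 alternatives concerned the choice of start, neighbours, joining, score, width, the limit of 20 kb, ties and the window.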

Additional observations from a re-analysis of the deposited data

How the results depend on the processing

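The 12 results (the share of starts with both lists, covered lengths, the region that ends first, H3K27me3 near Pol2-S5p starts, developmental factors with both, and CpG-rich stretches) were recomputed under 12 alternatives, and 76 of the values stayed within the counting interval of the reported one (1.5 times for the gene count) while 66 did not. Upstream, Pol2-S5p ended first more often than H3K27me3 in 12 of 12 alternatives, downstream in 11 of 12, and where both regions were over 10 kb H3K27me3 did so downstream in 11 of 11. The exception was the demand that both lists cover the whole 2-kb window. The cause of the changes was not tested. Joining regions up to 1 kb apart changed no result beyond its interval.

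The share with a CpG-rich stretch was 77.1% with the farthest upstream start and 75.8% with the start of longest Pol2-S5p cover. With overlapping windows kept, 29.4% of starts had both lists, Pol2-S5p covered 17400 bp, and upstream H3K27me3 ended first at 24.9% and Pol2-S5p at 61.0%. With isolated genes only, 31.3% had both, covered lengths were 12102 bp (H3K27me3) and 5800 bp (Pol2-S5p), H3K27me3 and Pol2-S5p ended first at 18.5% and 69.7% upstream and 24.9% and 59.4% downstream, 22.1% of Pol2-S5p starts had H3K27me3 within 20 kb, 85.0% had a stretch, and among pairs over 10 kb Pol2-S5p ended first downstream at 25.0%. With regions up to 3 kb apart joined, Pol2-S5p ended first at 61.5% upstream and 51.4% downstream.

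With regions above the median score, 12.0% had both, covered lengths were 10800 bp and 4000 bp, Pol2-S5p ended first at 64.5% upstream, H3K27me3 and Pol2-S5p at 22.6% and 62.0% downstream, 17.8% had H3K27me3 within 20 kb, 60 developmental factors had both, and 83.8% had a stretch. With regions over 10 kb left out these became 8.84%, 4000 bp and 2000 bp, 16.7% and 69.3% upstream, 11.8% and 74.3% downstream, 16.2%, 13 factors and 86.5%, and no pair over 10 kb remained. With regions under 1 kb left out, 28.1% had both, covered lengths were 20200 bp and 18800 bp, and downstream shares were 31.0% and 50.3%.

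With a limit of 10 kb, covered lengths were 11358.5 bp and 10136.5 bp, H3K27me3 and Pol2-S5p ended first at 20.4% and 59.8% upstream and 25.1% and 48.6% downstream, 16.7% had H3K27me3 in reach, and pairs over 10 kb gave 28.6% and 15.9% downstream. With edges up to 1 kb apart tied, the shares were 18.0% and 50.4% upstream and 25.5% and 38.1% downstream, and 25.0% for Pol2-S5p downstream in pairs over 10 kb. With the whole window covered, 10.6% had both, covered lengths were 27024 bp and 30985 bp, shares were 31.3% and 44.7% upstream and 36.1% and 35.8% downstream, 37.5% had H3K27me3 within 20 kb, 65.6% had a stretch, and H3K27me3 ended first downstream at 35.1% of pairs over 10 kb. Without read counts, replicates or a level inside each region, an edge shows only where the peak finder stopped, on a grid of 200 bp.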

Other observations

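A few Pol2-S5p starts lay in a gap between H3K27me3 regions. At 222 of the 5807 starts (3.82%) with Pol2-S5p over the start and no H3K27me3 in the 2-kb window, H3K27me3 lay within 20 kb on both sides. The flanking regions were a median of 21200 bp apart (19600 to 22400). The narrowest such gap was at Unkl, where H3K27me3 began 1398 bp upstream and 1203 bp downstream of the start inside a Pol2-S5p region of 33400 bp. The reverse, H3K27me3 over the start with Pol2-S5p on both sides but not in the window, made up a larger share of its set. It was found at 262 of 1408 starts (18.6%), with the flanking Pol2-S5p regions 18500 bp apart (17600 to 20200).

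The start of Asmt, which encodes the last enzyme of melatonin synthesis, had identical regions of 5800 bp in both lists, and all 200 bases before it are unknown bases in the assembly.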
